A study of Sparus aurata with 8 samples.

Results

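Lysosomal proteases and autophagy genes were examined in the gilthead seabream, *Sparus aurata*, as 64 of the 31501 protein_coding features of a count table of 197399 features. They were chosen by product name, as every protein_coding feature whose product contains the word cathepsin, lysosom, autophagy or sequestosome. The cathepsin and lysosome names cover 24 cysteine cathepsins, 4 aspartic or serine cathepsins, 9 other enzymes, 6 membrane proteins and 4 trafficking factors. The autophagy names cover 16 features, and sequestosome-1 is the last. The rule reads names only, so it also takes in a non-lysosomal glucosylceramidase.

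The study compared haploid germ cells (HGC) with ejaculated spermatozoa (SPZ_EJ) to follow how the transcriptome changes while spermatids become sperm. HGC are secondary spermatocytes and spermatids that were sorted by flow cytometry from the testis, and SPZ_EJ were stripped from spermiating males by abdominal pressure. There were 4 libraries of each, every one from a pool of 3 males, and the sources do not say whether the HGC pool and the SPZ_EJ pool of the same number came from the same males. The labels give no genotype, treatment or age for the fish. HGC were gated on the sorter, whereas ejaculates were not sorted, and the study describes SPZ_EJ RNA as having little ribosomal RNA and a low integrity number. The study took that RNA profile, together with microscopy, as its check that few cells other than sperm were present.

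Lysosomes are acidic organelles in which cathepsins and other hydrolases degrade proteins, lipids and glycans that arrive by endocytosis or by autophagy. In autophagy a double membrane grows around cytoplasm, closes and fuses with the lysosome, and the autophagy-related (ATG) proteins build that membrane. Both routes are known for the removal of organelles and residual cytoplasm as spermatids mature, while leukocytes are a textbook case of cells rich in cathepsins.

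Libraries held 19865716 to 30645027 counts in HGC and 15395220 to 17886675 counts in SPZ_EJ. The share of counts on protein_coding features ranged from 52.4% to 86.0%, with the lowest value in SPZ_EJ replicate 2. Markers of meiotic cells and spermatids summed to 10278 to 14852 CPM (counts scaled to a common library size) in HGC and to 335 to 871 CPM in SPZ_EJ, and 24 of 35 were called lower and 1 higher in SPZ_EJ. Leukocyte markers summed to 623 to 782 CPM in HGC and to 4626 to 10403 CPM in SPZ_EJ, and 29 of 33 were called higher and 0 lower. Of the 33 leukocyte markers, 2 had no count in HGC and 1 had none in SPZ_EJ. SPZ_EJ replicate 1 was the highest SPZ_EJ library for 26 of the 29, and for 59.2% of all mRNAs called higher. Of 38 duct epithelium markers 18 were tested, and 11 were called higher and 2 lower. Their sums were 174 to 255 CPM in HGC and 956 to 1651 CPM in SPZ_EJ. Of 11 erythrocyte markers 5 were tested, and 3 were called lower and 0 higher. Their sums were 168, 23.4, 51.8 and 683 CPM in HGC replicates 1 to 4 and 10.7 to 26.5 CPM in SPZ_EJ. Of 7 Sertoli and Leydig cell markers only 3 were tested, and 0 were called in either direction. For the germ cell and leukocyte lists, 32 of 35 and 30 of 33 markers were tested. Markers that were not tested could not be called. Across all tested mRNAs, 23.9% were called higher and 31.9% lower. The part that leukocytes, erythrocytes or epithelial cells had in the values below was not tested. In bulk libraries such as these, fewer cells of a type and less RNA per cell cannot be told apart.

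Levels are CPM after TMM scaling, and log2 fold changes are taken as SPZ_EJ against HGC. Positive values stand for a higher level in SPZ_EJ after that scaling, which need not be a larger share of library counts. A feature was called when edgeR's quasi-likelihood test gave a Benjamini-Hochberg adjusted p below 0.01 over all 21375 tested features and its absolute log2 fold change exceeded 1. Among all features tested, 56.9% were called. CPM is not divided by transcript length, so levels are not compared between genes, and shares of a summed CPM are shares of counts. RSEM divides reads between near-identical copies and the libraries were not stranded, so the split between features of the same name, and between overlapping genes, is uncertain.

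Of the 64 features, 52 passed the expression filter, 24 were called higher in SPZ_EJ, 6 were called lower and 22 were not called. The other 12 were not tested, and 2 of these, both named cathepsin S, had no count in any library. Across all tested mRNAs, 23.9% were called higher and 31.9% lower. In 25 of the 52 tested features every SPZ_EJ library stood above every HGC library, a pattern seen in 27.6% of tested mRNAs. The opposite separation was seen in 8 of the 52, against 38.0% of tested mRNAs. The median log2 fold change was 1.08 over the 52 tested features, -0.29 over all tested mRNAs and 0.45 over all tested features. The filter bears on these counts, because 8 of the 24 higher features reached the filter level of 0.530 CPM, taken before TMM scaling, in no HGC library and 16 reached it in fewer than 4. Without SPZ_EJ replicate 1, in which the leukocyte marker sum was highest, 22 features were called higher and 7 lower. They included 21 of the 24 higher features and all 6 lower ones. In that fit 9486 of all 25244 tested features were called higher and 5800 lower. The fit on all libraries called 6894 of 21375 higher and 5271 lower. The leukocyte marker sum was still 4626 to 7483 CPM in SPZ_EJ replicates 2 to 4, against at most 782 CPM in HGC. Together the 64 features made up 0.177% to 0.208% of mRNA counts in HGC and from 0.609% to 1.10% in SPZ_EJ.

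**Figure D1:**
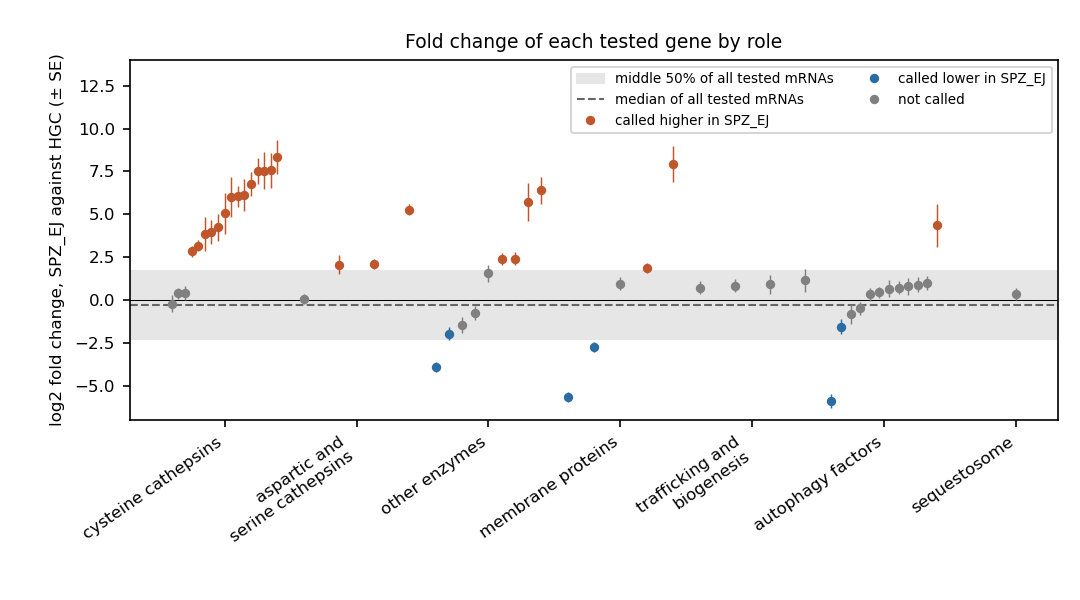
Log2 fold change of SPZ_EJ against HGC (y axis, points with ± SE) for the 52 tested genes, grouped by role (x axis); orange points were called higher, blue points lower and grey points not called. The dashed line at -0.29 is the median of all tested mRNAs and the grey band holds their middle 50%. The cysteine cathepsins form the one role with 14 called higher and 0 lower, while the autophagy factors lie mostly inside the band. Most of these 14 passed the expression filter through SPZ_EJ alone.

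The cysteine cathepsins were the role with the most calls. Of 24 features, 17 were tested, 14 were called higher, 0 lower and 3 were not called. Among the 14, cathepsin L and the cathepsin K features Saurata1B033643 and Saurata1B051928 reached the filter level in no HGC library. The same held for the cathepsin S features Saurata1B027300, Saurata1B030752, Saurata1B046639 and Saurata1B056978. These features passed the filter through SPZ_EJ alone and could hardly have been called lower. The cathepsin S features Saurata1B013632 and Saurata1B036574, pro-cathepsin H Saurata1B035294 and cathepsin K Saurata1B049650 reached the filter level in fewer than 4 HGC libraries. They too depended on SPZ_EJ to pass, so the same limit holds for their calls. The summed level of all 24 cysteine cathepsin features was 213 ± 21.3 CPM in HGC and 2484 ± 578.5 CPM in SPZ_EJ (SD, n = 4), which is 11.7-fold higher. The sum ranged from 186 to 237 CPM in HGC and from 1958 to 3287 CPM in SPZ_EJ, so the groups did not overlap. The leukocyte marker sums moved in the same direction, and the ratio of cysteine cathepsin CPM to leukocyte marker CPM was 0.238 to 0.340 in HGC and 0.308 to 0.475 in SPZ_EJ, ranges that overlap. The same ratio for the acid hydrolases outside the 64 features, described further on, did not overlap (0.501 to 0.626 in HGC and 0.717 to 0.916 in SPZ_EJ). Prosaposin alone weighs heavily in that sum.

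**Figure D2:**
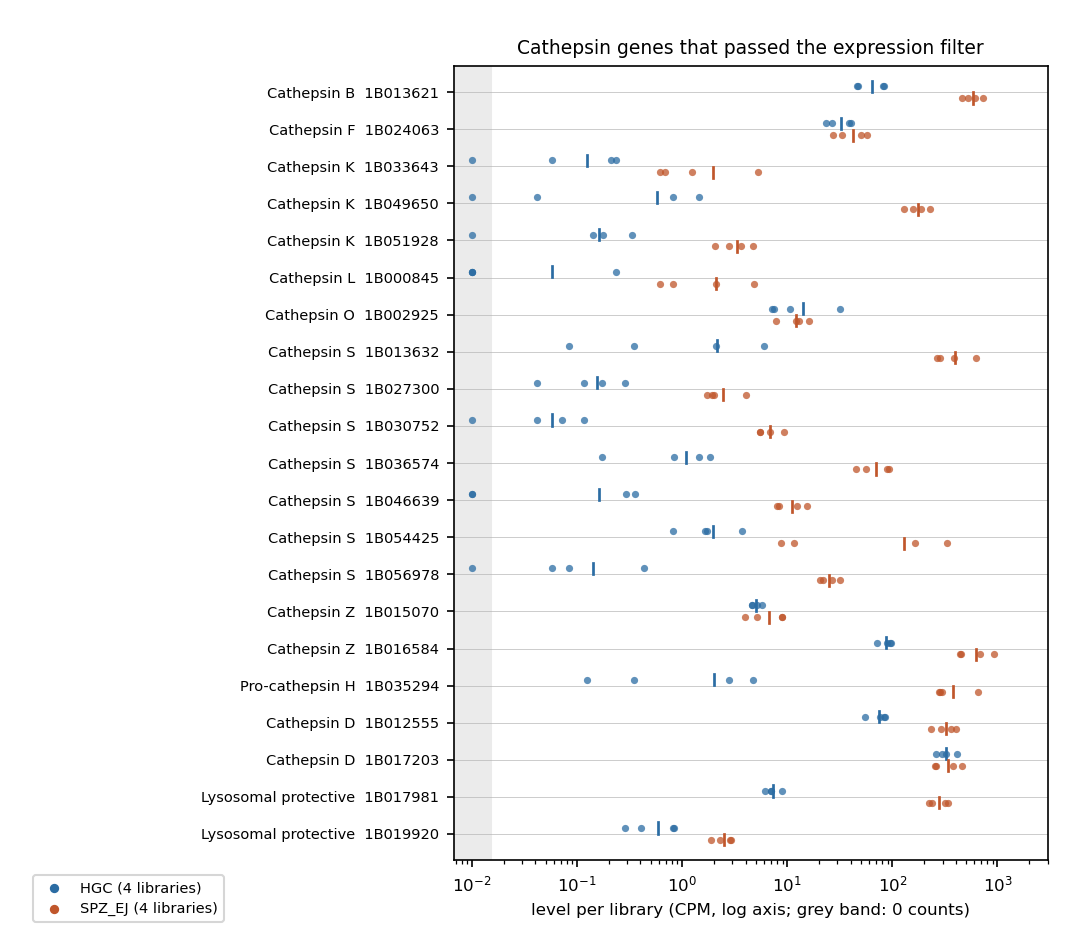
Level of each tested cathepsin feature (y axis, product name and identifier) in CPM on a log axis, with 1 point per library and a bar at the group mean; blue points are HGC, orange points SPZ_EJ and the grey band marks 0 counts. Cathepsin B, the main cathepsin Z feature and both cathepsin D features hold well over 10 CPM in both groups, whereas most cathepsin S and K features lie near or below 1 CPM in HGC and pro-cathepsin H at 4.71 CPM or less.

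Cathepsins B, F and O and the main cathepsin Z feature were already present in every HGC library. Cathepsin B (Saurata1B013621), an endopeptidase that also trims dipeptides from the carboxyl end, measured 45.8, 80.9, 83.5 and 47.5 CPM in HGC replicates 1 to 4 and 608, 726, 461 and 528 CPM in SPZ_EJ replicates 1 to 4. All SPZ_EJ libraries lay above all HGC libraries, with replicate 2 highest, and the level rose 9.01-fold (log2 fold change 3.17 ± 0.33 SE, edgeR quasi-likelihood adjusted p = 1.25e-05). Cathepsin Z (Saurata1B016584), a carboxypeptidase, measured 88.7, 94.1, 97.5 and 71.2 CPM in HGC replicates 1 to 4 and 937, 683, 454 and 442 CPM in SPZ_EJ replicates 1 to 4. Here too the groups did not overlap, the highest library was SPZ_EJ replicate 1, and the rise was 7.16-fold (log2 fold change 2.84 ± 0.33 SE, edgeR quasi-likelihood adjusted p = 2.66e-05).

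Not every cathepsin present in HGC passed the test. Cathepsin F (Saurata1B024063) averaged 32.2 ± 8.46 CPM in HGC against 41.9 ± 14.3 CPM in SPZ_EJ (SD, n = 4), with overlapping groups (log2 fold change 0.38 ± 0.33 SE, edgeR quasi-likelihood adjusted p = 0.317). Cathepsin O (Saurata1B002925) averaged 14.2 ± 11.8 CPM in HGC against 12.2 ± 3.40 CPM in SPZ_EJ, and its HGC spread rested on replicate 4 at 31.7 CPM (log2 fold change -0.22 ± 0.51 SE, edgeR quasi-likelihood adjusted p = 0.712). A further cathepsin Z feature (Saurata1B015070) averaged 5.05 ± 0.554 CPM in HGC against 6.73 ± 2.55 CPM in SPZ_EJ with overlapping groups (log2 fold change 0.42 ± 0.41 SE, edgeR quasi-likelihood adjusted p = 0.378).

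Cathepsins S, H and K were scarce in HGC and abundant in SPZ_EJ. Cathepsin S (Saurata1B013632), which in mammals trims the invariant chain in antigen-presenting cells, measured 6.0, 0.347, 0.0831 and 2.09 CPM in HGC replicates 1 to 4 and 629.8, 386, 265 and 283 CPM in SPZ_EJ replicates 1 to 4. The groups were far apart, and within HGC replicates 1 and 4 carried most of the signal. Its log2 fold change was 7.55 (± 1.09 SE, edgeR quasi-likelihood adjusted p = 0.000111). Pro-cathepsin H (Saurata1B035294), the precursor of an aminopeptidase, measured 2.79, 0.347, 0.125 and 4.71 CPM in HGC replicates 1 to 4 and 646, 275, 285 and 299.5 CPM in SPZ_EJ replicates 1 to 4. SPZ_EJ replicate 1 stood far above the other SPZ_EJ libraries, and HGC replicates 1 and 4 were again the highest of their group. The log2 fold change was 7.58 (± 1.01 SE, edgeR quasi-likelihood adjusted p = 6.80e-05).

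Cathepsin K (Saurata1B049650), the collagen-cleaving protease of osteoclasts in mammals, measured 1.43, 0, 0.0415 and 0.814 CPM in HGC replicates 1 to 4 and 229.6, 189, 158 and 129.8 CPM in SPZ_EJ replicates 1 to 4. The groups did not overlap, and HGC replicates 1 and 4 once more held nearly all of the 35 HGC counts. With a log2 fold change of 8.34 this was the largest rise among the tested cathepsins (± 0.99 SE, edgeR quasi-likelihood adjusted p = 2.90e-05). A second cathepsin S feature (Saurata1B056978) measured 0.429, 0, 0.0831 and 0.0581 CPM in HGC replicates 1 to 4 and 26.3, 32, 21.7 and 20.4 CPM in SPZ_EJ replicates 1 to 4, with 9 counts in all of HGC and 2086 in SPZ_EJ. Its log2 fold change was 7.52 (± 0.75 SE, edgeR quasi-likelihood adjusted p = 9.25e-06), and its highest library was SPZ_EJ replicate 2.

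In all, 7 of the 10 cathepsin S features were called higher, with log2 fold changes from 3.98 to 7.55. That number includes those listed above that reached the filter level in no HGC library or in fewer than 4. Saurata1B036574, outside the naming rule, averaged 1.08 ± 0.736 CPM in HGC against 70.6 ± 23.9 CPM in SPZ_EJ. The others stayed at or below a mean of 11 CPM in SPZ_EJ except Saurata1B013632, Saurata1B056978 and Saurata1B054425. A counter-example was Saurata1B043405, which had 28 counts in HGC and 1 in SPZ_EJ, did not pass the filter and was not tested. Its SPZ_EJ to HGC ratio was 0.0309, with a 95% exact binomial interval of 0.000755 to 0.187 that covers counting error only.

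Of 4 cathepsin K features, 3 were called higher, and the last, Saurata1B018055, had 0 counts in HGC and 3 in SPZ_EJ and was not tested. The single cathepsin L feature (Saurata1B000845), named for a broad endopeptidase of the lysosome, was also called higher (log2 fold change 5.05 ± 1.20 SE, edgeR quasi-likelihood adjusted p = 0.00296). Its 4 HGC counts all came from replicate 4, and its SPZ_EJ libraries ranged from 0.614 to 4.80 CPM. The calls of cathepsin L and of the cathepsin K feature Saurata1B033643 were each lost when 1 library was left out, for 3 and 5 of the 8 libraries, with adjusted p of up to 0.0151 and 0.0269 by the same edgeR test.

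The make-up of the cysteine cathepsin signal differed between the groups. Cathepsins B and Z took 22.7% to 36.8% and 36.4% to 50.8% of cysteine cathepsin CPM in HGC, and 18.5% to 29.1% and 22.4% to 28.8% in SPZ_EJ. Cathepsin F went from 12.1% to 18.5% in HGC to 1.38% to 2.00% in SPZ_EJ. For cathepsin S features the share was 0.790% to 5.83% in HGC against 22.0% to 31.7% in SPZ_EJ. The share of cathepsin H was 0.0526% to 2.28% in HGC and 11% to 19.6% in SPZ_EJ, and that of cathepsin K was 0.0263% to 0.844% in HGC and 6.03% to 8.24% in SPZ_EJ. None of the ranges of cathepsins F, H, K, S and Z overlapped between the groups, whereas those of cathepsin B did.

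A small set of cathepsin features was concentrated in SPZ_EJ replicates 3 and 4. Cathepsin S Saurata1B054425 measured 1.71, 0.810, 1.66 and 3.72 CPM in HGC replicates 1 to 4 and 11.5, 8.64, 163 and 333 CPM in SPZ_EJ replicates 1 to 4. Its SPZ_EJ libraries thus fell into a low pair and a high pair, and replicates 3 and 4 held 95.7% of its 10662 SPZ_EJ counts. The feature was called higher (log2 fold change 6.02 ± 1.17 SE, edgeR quasi-likelihood adjusted p = 0.000830), and without SPZ_EJ replicate 4 the log2 fold change was 4.97. The third cathepsin Z feature (Saurata1B001110) measured 0, 0, 0 and 0.291 CPM in HGC replicates 1 to 4 and 0.0696, 0.260, 23 and 46.2 CPM in SPZ_EJ replicates 1 to 4, so 99.6% of its 1429 SPZ_EJ counts came from replicates 3 and 4. It overlapped HGC, because SPZ_EJ replicate 1 lay below HGC replicate 4, and it was removed by the filter. Both remaining pro-cathepsin H features, Saurata1B022545 with 42 SPZ_EJ counts and Saurata1B056895 with 18, held 95.2% and 94.4% of them in the same pair of libraries. These 4 features were picked out after their values had been seen, as those with both libraries more than 4 times above the other two, and no test was run on this pattern.

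**Figure D3:**
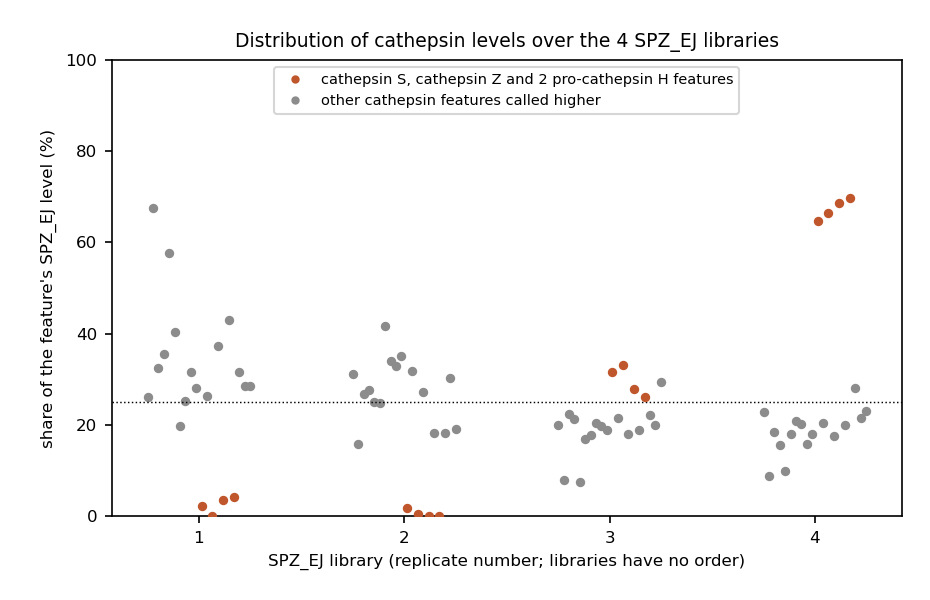
Share of each feature's summed SPZ_EJ level (y axis, %) that fell in each SPZ_EJ library (x axis), for the cathepsin features called higher (grey) and for the 4 features concentrated in replicates 3 and 4 (orange); the dotted line is an even share. The orange points lie near 0 in replicates 1 and 2, while most grey points are highest in replicate 1 or 2.

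Most other features were highest in the other libraries. Of the 24 features called higher, 13 had their highest SPZ_EJ value in replicate 1, 8 in replicate 2, 2 in replicate 3 and 1 in replicate 4. For all mRNAs called higher these shares were 59.2%, 17.0%, 10.8% and 13%.

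Among the aspartic and serine cathepsins, 3 of 4 features were called higher and 0 lower. Cathepsin D, the main aspartic protease of the lysosome, is represented by a pair of features with different behaviour. Saurata1B012555 measured 84.8, 82.4, 76.9 and 55.2 CPM in HGC replicates 1 to 4 and 406, 235, 287 and 362 CPM in SPZ_EJ replicates 1 to 4. Every SPZ_EJ library was above every HGC library, and the level was 4.31-fold higher (log2 fold change 2.11 ± 0.29 SE, edgeR quasi-likelihood adjusted p = 8.05e-05). Saurata1B017203 measured 296, 324, 416 and 262 CPM in HGC replicates 1 to 4 and 458, 378, 262 and 257 CPM in SPZ_EJ replicates 1 to 4. The groups overlapped over most of their range (log2 fold change 0.06 ± 0.29 SE, edgeR quasi-likelihood adjusted p = 0.860).

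Within each library the log2 ratio of the first cathepsin D feature to the second was -2.11 ± 0.28 in HGC and -0.06 ± 0.50 in SPZ_EJ (SD, n = 4). The groups did not overlap, and a two-sided exact permutation test gave p = 0.0286, the smallest that 4 against 4 libraries allow, and 0.0381 after Benjamini-Hochberg adjustment over 8 pairs. For these ratios 0.5 counts were added to each value. This pair and the other 7 were chosen after the values had been seen. A ratio within libraries shows unequal change in counts and is free of library scaling. It is not free of RNA quality. The study primed reverse transcription with oligo-dT and reports high RNA integrity in HGC and low integrity in SPZ_EJ. Integrity thus went with group, and its part in these ratios cannot be told apart from unequal change in level.

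The lysosomal protective protein is cathepsin A, a serine carboxypeptidase that also stabilises beta-galactosidase and neuraminidase in mammals. Saurata1B017981 measured 7.0, 6.14, 7.02 and 8.95 CPM in HGC replicates 1 to 4 and 317, 337, 221 and 239 CPM in SPZ_EJ replicates 1 to 4. The SPZ_EJ libraries were all at least 221 CPM while no HGC library exceeded 8.95 CPM, a 38.3-fold difference (log2 fold change 5.26 ± 0.31 SE, edgeR quasi-likelihood adjusted p = 1.44e-06). The other feature, Saurata1B019920, measured 0.286, 0.405, 0.831 and 0.814 CPM in HGC replicates 1 to 4 and 2.82, 1.88, 2.90 and 2.29 CPM in SPZ_EJ replicates 1 to 4. It was called higher (log2 fold change 2.06 ± 0.56 SE, edgeR quasi-likelihood adjusted p = 0.00653), but the call was lost without any 1 of 7 libraries, with an adjusted p of up to 0.0521 by the same edgeR test. This feature reached the filter level in fewer than 4 HGC libraries, so it depended on SPZ_EJ to pass. The log2 ratio of the first to the second was 3.69 ± 0.60 in HGC and 6.80 ± 0.50 in SPZ_EJ (exact permutation p = 0.0286, adjusted 0.0381 over 8 pairs).

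Other lysosomal enzymes were divided. Of 9 features 4 were called higher, 2 lower and 3 were not called. Lysosomal Pro-X carboxypeptidase (Saurata1B004337), which removes a residue next to proline, measured 1.71, 1.62, 0.332 and 7.03 CPM in HGC replicates 1 to 4 and 302, 232, 185 and 176 CPM in SPZ_EJ replicates 1 to 4. The groups were widely separated, and HGC replicate 4 was the highest of its group (log2 fold change 6.39 ± 0.80 SE, edgeR quasi-likelihood adjusted p = 4.34e-05). Pro-X carboxypeptidase reached the filter level in fewer than 4 HGC libraries, so it depended on SPZ_EJ to pass. Alpha-mannosidase (Saurata1B012999), which takes apart N-linked glycans, measured 6.36, 6.66, 8.18 and 6.69 CPM in HGC replicates 1 to 4 and 59.2, 27.6, 29 and 30.9 CPM in SPZ_EJ replicates 1 to 4. Its highest library was SPZ_EJ replicate 1, and the groups did not overlap (log2 fold change 2.39 ± 0.34 SE, edgeR quasi-likelihood adjusted p = 0.000106).

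The thioesterases of the PPT2 type, which remove fatty acyl groups, went in opposite directions. Lysosomal thioesterase PPT2 (Saurata1B022119) measured 1.36, 0, 0.125 and 0.174 CPM in HGC replicates 1 to 4 and 51.7, 15.5, 9.21 and 6.08 CPM in SPZ_EJ replicates 1 to 4. Its SPZ_EJ libraries spread widely, with replicate 1 highest, yet all lay above HGC (log2 fold change 5.71 ± 1.12 SE, edgeR quasi-likelihood adjusted p = 0.000881). PPT2 reached the filter level in fewer than 4 HGC libraries and depended on SPZ_EJ to pass, so it could hardly have been called lower. Lysosomal thioesterase PPT2-A (Saurata1B026347) measured 263, 209, 183 and 201 CPM in HGC replicates 1 to 4 and 17.5, 14.9, 10.4 and 13.3 CPM in SPZ_EJ replicates 1 to 4. Here all HGC libraries lay above all SPZ_EJ libraries, and the level fell 15.3-fold (log2 fold change -3.93 ± 0.30 SE, edgeR quasi-likelihood adjusted p = 1.85e-06). The within-library log2 ratio of PPT2 to PPT2-A was at most -7.56 in HGC and at least -1.12 in SPZ_EJ (exact permutation p = 0.0286, adjusted 0.0381 over 8 pairs). PPT2 had 0 counts in HGC replicate 2 and 3 each in replicates 3 and 4, so the ratios of those libraries rest on the 0.5 counts added and are not given. It was in the pairs only because SPZ_EJ took it past the filter, so the filter favoured a lower ratio in HGC.

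Alpha-glucosidase, which degrades glycogen in the lysosome, showed a similar divergence. Saurata1B013777 measured 6.36, 7.58, 5.07 and 5.23 CPM in HGC replicates 1 to 4 and 54.3, 32.9, 20.4 and 22.1 CPM in SPZ_EJ replicates 1 to 4. It rose without overlap (log2 fold change 2.42 ± 0.39 SE, edgeR quasi-likelihood adjusted p = 0.000225). Saurata1B007470 averaged 6.33 ± 0.711 CPM in HGC against 3.71 ± 0.981 CPM in SPZ_EJ, with every HGC library above every SPZ_EJ library but no call (log2 fold change -0.77 ± 0.39 SE, edgeR quasi-likelihood adjusted p = 0.101). Their log2 ratio, Saurata1B007470 to Saurata1B013777, was 0.07 ± 0.12 in HGC and -3.04 ± 0.61 in SPZ_EJ (exact permutation p = 0.0286, adjusted 0.0381 over 8 pairs).

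Lysosomal acid phosphatase, a phosphate-releasing enzyme long used as a marker of lysosomes, was lower in both of its features by value. Saurata1B054769 measured 33.9, 38.3, 29.2 and 25 CPM in HGC replicates 1 to 4 and 14.6, 5.65, 6.42 and 5.44 CPM in SPZ_EJ replicates 1 to 4. It was called lower (log2 fold change -1.97 ± 0.39 SE, edgeR quasi-likelihood adjusted p = 0.000895), but not when scaled by library size only, where the log2 fold change was -1.14 with an edgeR adjusted p of 0.0573. Without SPZ_EJ replicate 1, its highest SPZ_EJ library, the log2 fold change was -2.59. Saurata1B050967 measured 78, 97.2, 42.4 and 46.9 CPM in HGC replicates 1 to 4 and 36.4, 36.3, 12.9 and 10.3 CPM in SPZ_EJ replicates 1 to 4. All HGC libraries lay above all SPZ_EJ libraries, but the test did not reach the threshold (log2 fold change -1.46 ± 0.47 SE, edgeR quasi-likelihood adjusted p = 0.0162). The ratio of the pair did not pass an exact permutation test between the groups (p = 0.371, adjusted 0.424 over 8 pairs).

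Non-lysosomal glucosylceramidase (Saurata1B048398), which splits glucosylceramide outside the lysosome and is needed for normal sperm head shape in mice, measured 85, 70.4, 67.8 and 78.9 CPM in HGC replicates 1 to 4 and 58.2, 158, 431 and 236 CPM in SPZ_EJ replicates 1 to 4. SPZ_EJ replicate 1 lay below every HGC library and replicate 3 was far above them, so the groups overlapped (log2 fold change 1.55 ± 0.49 SE, edgeR quasi-likelihood adjusted p = 0.0143).

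The membrane proteins fell in sum from 503 to 747 CPM in HGC to 104 to 162 CPM in SPZ_EJ, opposite to the cathepsins. Of 6 features, 5 were tested, 2 were called higher and 2 lower. The fall came from the lysosomal-associated transmembrane (LAPTM) proteins 4A and 4B, which span late endosome and lysosome membranes. LAPTM 4A (Saurata1B021321) measured 450.1, 388, 359.6 and 273 CPM in HGC replicates 1 to 4 and 67.9, 65.6, 42.6 and 41.7 CPM in SPZ_EJ replicates 1 to 4. The groups were clearly apart, and the level was 6.75-fold lower in SPZ_EJ (log2 fold change -2.75 ± 0.31 SE, edgeR quasi-likelihood adjusted p = 1.85e-05). LAPTM 4B (Saurata1B010878) measured 273, 293, 251 and 206 CPM in HGC replicates 1 to 4 and 5.39, 4.48, 4.58 and 5.62 CPM in SPZ_EJ replicates 1 to 4. Its SPZ_EJ libraries were nearly equal and all far below HGC, 51-fold on average (log2 fold change -5.67 ± 0.30 SE, edgeR quasi-likelihood adjusted p = 1.44e-06). LAPTM 4A still took 38.8% to 41.9% of the membrane protein CPM in SPZ_EJ, while LAPTM 4B went from 36.6% to 42.0% in HGC to 2.79% to 5.23%. The within-library log2 ratio of 4A to 4B was 0.51 ± 0.15 in HGC and 3.40 ± 0.44 in SPZ_EJ (exact permutation p = 0.0286, adjusted 0.0381 over 8 pairs).

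The lysosome-associated membrane glycoproteins (LAMP), whose sugar chains line the inside of the lysosome membrane, did not follow the LAPTM proteins. LAMP 1 (Saurata1B025974) measured 10.9, 8.74, 11.3 and 13.5 CPM in HGC replicates 1 to 4 and 36, 54.6, 30.9 and 40.6 CPM in SPZ_EJ replicates 1 to 4. Every SPZ_EJ library was above every HGC library (log2 fold change 1.87 ± 0.30 SE, edgeR quasi-likelihood adjusted p = 0.000240). LAMP 2 (Saurata1B035155), which in mammals also serves chaperone-mediated autophagy, measured 12.4, 8.62, 12.2 and 9.71 CPM in HGC replicates 1 to 4 and 30.1, 29.1, 11.7 and 12.2 CPM in SPZ_EJ replicates 1 to 4. Only SPZ_EJ replicates 1 and 2 were well above HGC, the groups overlapped, and the feature was not called (log2 fold change 0.95 ± 0.40 SE, edgeR quasi-likelihood adjusted p = 0.0497).

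LAMP 3 (Saurata1B037910), a marker of mature dendritic cells in humans, measured 0, 0.174, 0 and 0 CPM in HGC replicates 1 to 4 and 22.6, 3.90, 14.2 and 6.67 CPM in SPZ_EJ replicates 1 to 4. It had 3 counts in HGC, all in replicate 2, and 1110 in SPZ_EJ, a ratio of 320 with a 95% exact binomial interval of 109 to 1553 for counting error only. The feature was called higher (edgeR quasi-likelihood adjusted p = 6.45e-05). It reached the filter level in no HGC library, so it passed through SPZ_EJ alone and could hardly have been called lower. LAMP 5 (Saurata1B000587) had 17 counts in HGC and 58 in SPZ_EJ, mostly in replicate 2, and was not tested.

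Trafficking and organelle biogenesis factors gave no call in 4 tested features. Subunits 1 and 5 of the biogenesis of lysosome-related organelles complex 1, which sorts cargo to pigment granules and related organelles, had log2 fold changes of 0.93 and 0.72. The larger lysosomal-trafficking regulator (Saurata1B052133), whose loss gives giant lysosomes in humans and mice, averaged 5.59 ± 0.955 CPM in HGC against 10 ± 2.38 CPM in SPZ_EJ. Its lowest SPZ_EJ library, replicate 4 at 6.95 CPM, lay just above the highest HGC library, replicate 4 at 6.92 CPM (log2 fold change 0.84 ± 0.36 SE, edgeR quasi-likelihood adjusted p = 0.0543). The other feature of that name (Saurata1B052585) averaged 0.577 ± 0.366 CPM in HGC against 1.28 ± 0.637 CPM in SPZ_EJ with overlapping groups, and the ratio of the pair did not pass an exact permutation test (p = 0.543, unchanged by adjustment over 8 pairs).

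**Figure D4:**
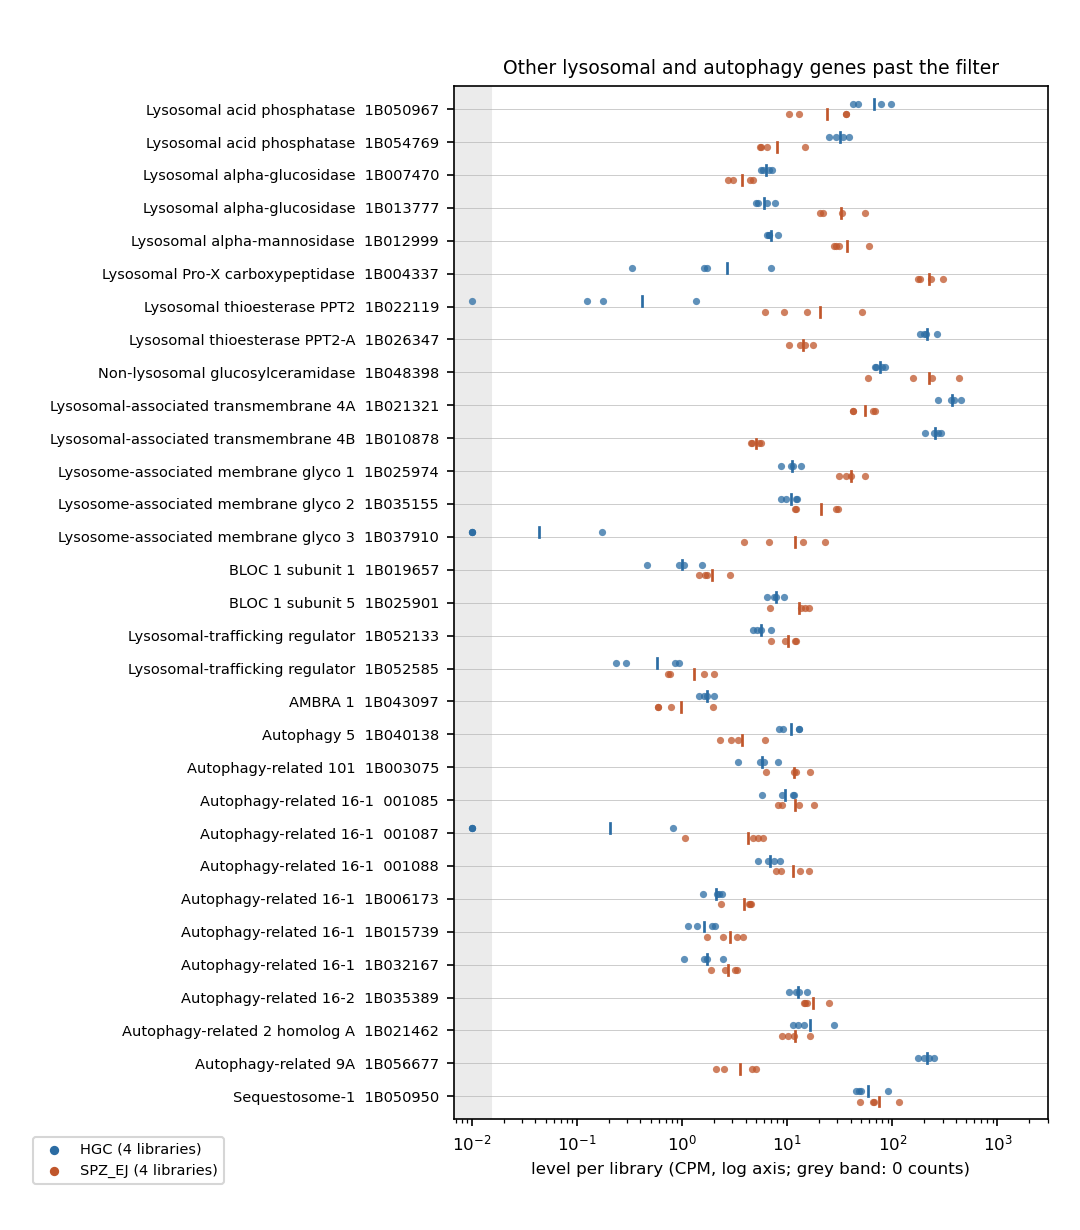
Level of the tested features other than cathepsins (y axis, product name and identifier; BLOC is the biogenesis of lysosome-related organelles complex and AMBRA the activating molecule in BECN1-regulated autophagy) in CPM on a log axis, with 1 point per library and a bar at the group mean; blue points are HGC, orange points SPZ_EJ and the grey band marks 0 counts. Autophagy-related 9A, PPT2-A and LAPTM 4B are far lower in SPZ_EJ, and most autophagy features overlap between the groups.

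Autophagy factors mostly did not pass the test. Of 16 features 12 were tested, 1 was called higher, 2 lower and 9 were not called. Their summed level was nonetheless 244.6 to 318 CPM in HGC and 67.6 to 114 CPM in SPZ_EJ. That fall rested on 1 gene. Autophagy-related 9A (Saurata1B056677), the transmembrane lipid scramblase whose vesicles seed the growing autophagosome membrane, measured 252, 222, 199 and 174 CPM in HGC replicates 1 to 4 and 2.51, 2.08, 5.08 and 4.62 CPM in SPZ_EJ replicates 1 to 4. Every HGC library was above every SPZ_EJ library by a wide margin, 59.3-fold on average (log2 fold change -5.89 ± 0.40 SE, edgeR quasi-likelihood adjusted p = 1.48e-06). Its share of the autophagy factor CPM was 70.9% to 79.1% in HGC against 2.20% to 6.16% in SPZ_EJ. Leaving out single libraries gave log2 fold changes from -6.18 to -5.74.

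Autophagy 5 (Saurata1B040138), the partner of ATG12 in the conjugate that attaches LC3 to the membrane, measured 12.9, 12.9, 9.10 and 8.31 CPM in HGC replicates 1 to 4 and 6.13, 2.27, 3.40 and 2.88 CPM in SPZ_EJ replicates 1 to 4. The groups did not overlap, and the feature was called lower (log2 fold change -1.55 ± 0.43 SE, edgeR quasi-likelihood adjusted p = 0.00685). The call was lost without any 1 of 6 libraries, with an adjusted p of up to 0.0356 by the same edgeR test. It was also lost with no filter, by DESeq2's default test and with the replicate number as a block. The same held with the scalings by DESeq2 size factors, the upper quartile, library size only or mRNA features only. ATG16 proteins bind that conjugate and place it on the membrane. Of 8 features named autophagy-related 16-1, 6 were tested and 1 was called, Saurata001087, which measured 0, 0, 0 and 0.814 CPM in HGC replicates 1 to 4 and 5.26, 4.68, 5.91 and 1.05 CPM in SPZ_EJ replicates 1 to 4. All 14 HGC counts were in replicate 4, the call (log2 fold change 4.35 ± 1.25 SE, edgeR quasi-likelihood adjusted p = 0.00902) was lost without any 1 of 6 libraries, and the adjusted p then reached 0.0270. Saurata001087 also depended on SPZ_EJ to pass the filter, so it could hardly have been called lower.

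The remaining tested ATG16 features overlapped between the groups and were not called. Summed over all 8 autophagy-related 16-1 features, however, the level was 17.6 to 24.8 CPM in HGC and 29.2 to 46.5 CPM in SPZ_EJ, without overlap, and no test was run on this sum. Saurata001085 averaged 9.42 ± 2.70 CPM in HGC against 11.9 ± 4.46 CPM in SPZ_EJ (log2 fold change 0.34 ± 0.39 SE, edgeR quasi-likelihood adjusted p = 0.449). Autophagy-related 16-2 (Saurata1B035389) averaged 12.7 ± 2.02 CPM in HGC against 17.5 ± 5.11 CPM in SPZ_EJ, with SPZ_EJ replicate 1 far above the others at 25.1 CPM (log2 fold change 0.46 ± 0.32 SE, edgeR quasi-likelihood adjusted p = 0.214). Log2 fold changes of the other 4 tested autophagy-related 16-1 features ran from 0.67 to 0.90.

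Autophagy-related 2 homolog A (Saurata1B021462), a lipid transfer protein that feeds the growing membrane, averaged 16.5 ± 7.53 CPM in HGC against 11.8 ± 3.22 CPM in SPZ_EJ with overlapping groups (log2 fold change -0.49 ± 0.38 SE, edgeR quasi-likelihood adjusted p = 0.262). Autophagy-related 101 (Saurata1B003075), a subunit of the ULK1 initiation complex, averaged 5.76 ± 1.92 CPM in HGC against 11.5 ± 4.12 CPM in SPZ_EJ and was not called (log2 fold change 1.00 ± 0.42 SE, edgeR quasi-likelihood adjusted p = 0.0504). The activating molecule in BECN1-regulated autophagy 1 (Saurata1B043097), a regulator of beclin 1, averaged 1.70 ± 0.230 CPM in HGC against 0.980 ± 0.655 CPM in SPZ_EJ (log2 fold change -0.80 ± 0.57 SE, edgeR quasi-likelihood adjusted p = 0.231).

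Sequestosome-1 (Saurata1B050950), also called p62, the receptor that carries ubiquitin-tagged cargo into autophagosomes, measured 90.6, 48.6, 50.5 and 44.8 CPM in HGC replicates 1 to 4 and 116, 65.6, 67.5 and 49.1 CPM in SPZ_EJ replicates 1 to 4. Replicate 1 was the highest library in both groups, the groups overlapped, and the feature was not called (log2 fold change 0.35 ± 0.35 SE, edgeR quasi-likelihood adjusted p = 0.387).

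Other genes of the same pathways, whose product names hold none of the 4 words, were taken from lists by name. Their counts are over all features of a list, tested or not, and stand beside the 23.9% of all tested mRNAs that were called higher and the 31.9% called lower. Some list features passed the filter through SPZ_EJ alone and could hardly have been called lower. An example is alpha-N-acetylgalactosaminidase Saurata1B057144, with 2 counts in HGC and 127 in SPZ_EJ. The acid hydrolases and their saposin activators were the largest list, with 36 of 45 called higher and 0 lower, and a summed level of 351 to 392 CPM in HGC and 4216 to 9061 CPM in SPZ_EJ. N-acetylglucosamine-6-sulfatase (Saurata1B043818), which acts on heparan and keratan sulfate, averaged 0.626 ± 0.650 CPM in HGC against 111 ± 58.4 CPM in SPZ_EJ (log2 fold change 7.52 ± 0.92 SE, edgeR quasi-likelihood adjusted p = 3.55e-05). Tripeptidyl-peptidase 1 (Saurata1B002632), a serine protease, averaged 3.93 ± 3.38 CPM in HGC against 579.5 ± 329 CPM in SPZ_EJ (log2 fold change 7.21 ± 0.83 SE, edgeR quasi-likelihood adjusted p = 2.41e-05). Deoxyribonuclease-2-beta (Saurata1B025380), an acid nuclease, averaged 0.849 ± 0.981 CPM in HGC against 116 ± 20.5 CPM in SPZ_EJ (log2 fold change 7.15 ± 0.77 SE, edgeR quasi-likelihood adjusted p = 1.47e-05). Prosaposin (Saurata1B002295), which took the most counts of the list, averaged 192 ± 34.3 CPM in HGC against 3359 ± 1324 CPM in SPZ_EJ and was chosen after its values were seen (log2 fold change 4.13 ± 0.41 SE, edgeR quasi-likelihood adjusted p = 8.34e-06). SPZ_EJ replicate 1 was the highest SPZ_EJ library for 26 of the 36 called genes, and for 59.2% of all mRNAs called higher. The ratio of acid hydrolase CPM to leukocyte marker CPM given above was higher in every SPZ_EJ library than in any HGC library. Prosaposin alone made up 192 of the mean list sum of 375 CPM in HGC and 3359 of 6172 CPM in SPZ_EJ. This 1 gene thus weighs heavily in the ratio, which was not computed without it.

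Cystatins, the inhibitors of cysteine cathepsins, were called higher in 3 of 5 cases and lower in 0. Cystatin-F (Saurata1B012957), which in mammals restrains cathepsins of immune cells, averaged 0.396 ± 0.320 CPM in HGC against 18.3 ± 4.67 CPM in SPZ_EJ (log2 fold change 5.55 ± 0.65 SE, edgeR quasi-likelihood adjusted p = 2.75e-05). A cystatin (Saurata1B030598) averaged 29.5 ± 13.7 CPM in HGC against 797 ± 305 CPM in SPZ_EJ (log2 fold change 4.76 ± 0.46 SE, edgeR quasi-likelihood adjusted p = 7.83e-06). The third, Saurata1B056681, averaged 0.123 ± 0.126 CPM in HGC against 3.81 ± 1.78 CPM in SPZ_EJ (log2 fold change 4.95 ± 0.89 SE, edgeR quasi-likelihood adjusted p = 0.000479). Both this feature and cystatin-F averaged below the filter level of 0.530 CPM in HGC. They depended on SPZ_EJ to pass the filter and could hardly have been called lower.

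The V-type proton ATPase, which acidifies the lysosome and other compartments, was mixed. Of 26 subunit features 11 were called higher and 3 lower, with sums of 1111 to 1532 CPM in HGC and 1173 to 1682 CPM in SPZ_EJ. The largest rises were a catalytic subunit A feature (Saurata1B039781), subunit a isoform 4 (Saurata1B000204) and subunit G 1 (Saurata1B056857), with log2 fold changes of 5.07, 3.82 and 3.62. Subunit G 1 had only 5 counts in HGC and 76 in SPZ_EJ. It reached the filter level in no HGC library, so it passed through SPZ_EJ alone and could hardly have been called lower. Subunit a isoform 2 (Saurata1B046025) fell from 262 ± 65.8 CPM in HGC to 5.41 ± 6.49 CPM in SPZ_EJ (log2 fold change -5.61 ± 0.78 SE, edgeR quasi-likelihood adjusted p = 8.54e-05). Subunit d 1 (Saurata1B003207) fell from 716 ± 125 CPM in HGC to 149 ± 54.2 CPM in SPZ_EJ (log2 fold change -2.27 ± 0.33 SE, edgeR quasi-likelihood adjusted p = 0.000110). Subunit C 1-B (Saurata1B055075) had 215 counts in HGC and 0 in SPZ_EJ, so it was at least 86.6-fold lower if 3 counts over all SPZ_EJ libraries are taken as the limit of detection.

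Sorting receptors and lipid export proteins were called higher in 5 of 11 cases and lower in 2. The rises were led by a sortilin (Saurata1B026325), the sortilin-related receptor (Saurata1B010323) and a cation-independent mannose-6-phosphate receptor (Saurata1B034584), which deliver enzymes to the lysosome, at log2 fold changes of 4.09, 3.80 and 2.83. Niemann-Pick C1 (Saurata1B026093), the cholesterol exporter of the lysosome, fell from 166 ± 33.9 CPM in HGC to 43.6 ± 10.8 CPM in SPZ_EJ (log2 fold change -1.93 ± 0.29 SE, edgeR quasi-likelihood adjusted p = 0.000148). The alpha and beta subunits of N-acetylglucosamine-1-phosphotransferase (Saurata1B045470), which start the mannose-6-phosphate tag, fell from 25.7 ± 8.93 CPM in HGC to 7.96 ± 1.82 CPM in SPZ_EJ (log2 fold change -1.69 ± 0.34 SE, edgeR quasi-likelihood adjusted p = 0.00112).

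After TMM scaling, 5 of the 9 features on the list of initiation factors of autophagy were called lower and 1 higher. Their summed level was 358 to 422 CPM in HGC and 161 to 202 CPM in SPZ_EJ. Much of the difference in the sum came from ULK4, which was also 1 of the 5 called lower. The mean sum was 2.10-fold lower in SPZ_EJ with it and 1.40-fold lower without it, at 238 to 289 CPM in HGC and 156 to 199 CPM in SPZ_EJ. The count of lower calls depended on scaling and was 4 with DESeq2 size factors, 3 with the upper quartile, 2 with mRNA features only and 1 with library size only. ULK4 (Saurata1B028122), a pseudokinase of the ULK family that is tied to cilia in mammals, fell from 135 ± 14.6 CPM in HGC to 3.32 ± 1.86 CPM in SPZ_EJ (log2 fold change -5.34 ± 0.54 SE, edgeR quasi-likelihood adjusted p = 1.01e-05). Phosphoinositide 3-kinase regulatory subunit 4 (Saurata1B031563), of the complex that marks the site of autophagosome formation, fell from 17.3 ± 6.75 CPM in HGC to 4.52 ± 2.63 CPM in SPZ_EJ (log2 fold change -1.94 ± 0.48 SE, edgeR quasi-likelihood adjusted p = 0.00371). WD repeat domain phosphoinositide-interacting 4 (Saurata1B014448), which binds that lipid, fell from 22.6 ± 5.71 CPM in HGC to 5.94 ± 2.08 CPM in SPZ_EJ (log2 fold change -1.92 ± 0.37 SE, edgeR quasi-likelihood adjusted p = 0.000748). Beclin-1 (Saurata1B019229), in contrast, rose from 18.7 ± 5.83 CPM in HGC to 43.4 ± 15.3 CPM in SPZ_EJ (log2 fold change 1.21 ± 0.34 SE, edgeR quasi-likelihood adjusted p = 0.00719).

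Of the LC3 conjugation and receptor list 6 of 10 features were tested, and 3 were called higher and 0 lower, a number of features too small to set against the 23.9% of all tested mRNAs. They were both Toll-interacting features (Saurata1B005427 and Saurata1B040802) and next to BRCA1 gene 1 (Saurata1B040600), at log2 fold changes of 2.99, 2.47 and 1.17. Neither of the features named ATG7, the activating enzyme for LC3, was called.

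Of the list of regulators of lysosome gene expression and the nutrient-sensing kinase mTOR, 15 of 19 features were tested, and 4 were called higher and 4 lower. That is 26.7% of the tested features each way, near the 23.9% and 31.9% of all mRNAs, and the median log2 fold change was 0.17. Transcription factor EB (Saurata1B043778), the main activator of lysosome genes in mammals, rose from 1.83 ± 1.80 CPM in HGC to 74 ± 15.9 CPM in SPZ_EJ (log2 fold change 5.36 ± 0.75 SE, edgeR quasi-likelihood adjusted p = 9.05e-05). Microphthalmia-associated transcription factor (Saurata1B056165) and transcription factor E3 (Saurata1B003972), of the same family, rose by log2 fold changes of 3.22 and 2.46. The mTOR partner lst8 (Saurata1B053561) fell from 27.9 ± 23.4 CPM in HGC to 3.30 ± 1.37 CPM in SPZ_EJ (log2 fold change -3.08 ± 0.63 SE, edgeR quasi-likelihood adjusted p = 0.00117). A feature for the mTOR kinase itself (Saurata1B049493) fell from 40.2 ± 5.04 CPM in HGC to 4.94 ± 2.08 CPM in SPZ_EJ (log2 fold change -3.02 ± 0.36 SE, edgeR quasi-likelihood adjusted p = 2.80e-05), and another (Saurata1B016752) had a log2 fold change of -2.79.

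**Figure D5:**
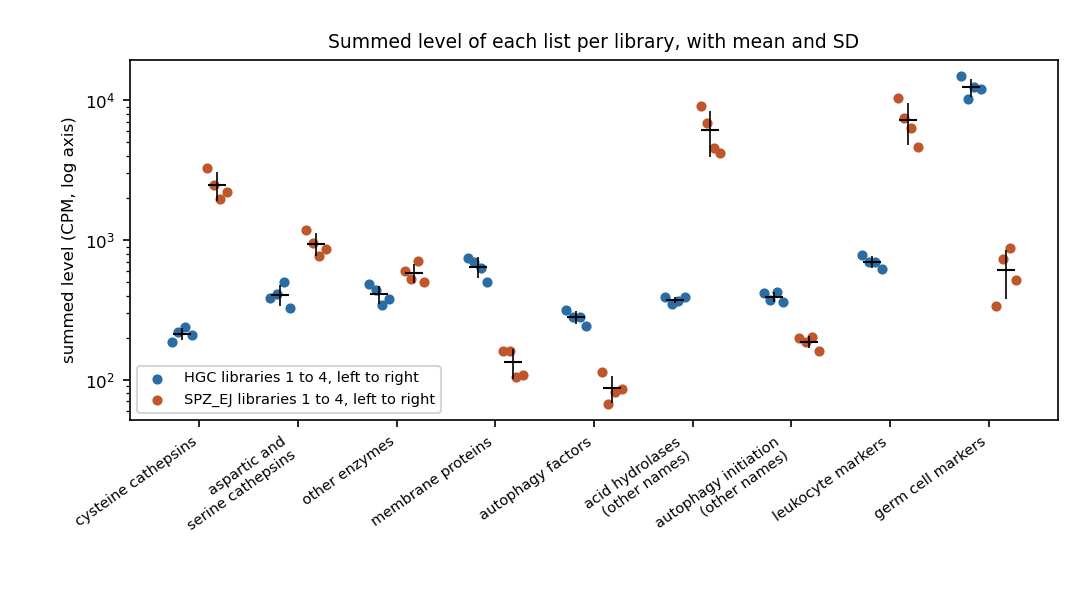
Summed level (y axis, CPM on a log axis) of roles, pathway lists and marker lists (x axis), with 1 point per library for HGC (blue) and SPZ_EJ (orange), and a black mark and bar for the mean and SD of 4 libraries. The sums of cysteine cathepsins (186 to 237 CPM in HGC, 1958 to 3287 CPM in SPZ_EJ), acid hydrolases and leukocyte markers were higher in SPZ_EJ. Those of membrane proteins, autophagy factors and germ cell markers were lower. The lower membrane sum came from LAPTM 4A and 4B and the lower autophagy sum from autophagy-related 9A. Median log2 fold changes of the tested features in these roles were 0.95 and 0.56. The part of any cell type was not tested.

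Leaving out single libraries moved the fold change of 13 of the 30 called features by more than 1.5 times at least once, and all 13 kept their direction. Besides those given above, cathepsin K Saurata1B049650 ranged over these omissions from 7.71 to 9.11 on the log2 scale, cathepsin S Saurata1B013632 from 6.95 to 8.70 and Saurata1B056978 from 6.91 to 8.59. Cathepsin S Saurata1B046639 ranged from 5.46 to 6.63, pro-cathepsin H from 6.99 to 8.32 and Pro-X carboxypeptidase from 5.82 to 7.35. The widest ranges were those of features with few HGC counts, 7.24 to 10.84 for LAMP 3, 3.71 to 9.32 for autophagy-related 16-1 Saurata001087, 4.61 to 7.43 for PPT2, 4.08 to 8.34 for cathepsin L and 2.48 to 4.31 for cathepsin K Saurata1B033643. The omitted libraries concerned were HGC replicates 1 to 4 and SPZ_EJ replicates 1 and 4.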

How the data were processed

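RNA-seq libraries were made without strand information from 4 pools of HGC and 4 pools of SPZ_EJ, each pool of 3 males. The authors deposited RSEM expected counts per feature, whole numbers without normalization, and the submitters' processing notes name STAR 2.5.3a and RSEM 1.3.0. The genome is the extended *S. aurata* reference of the study. These counts were the only values used, and groups and replicate numbers came from the labels. P-values measure the spread between these pools.

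Differential expression was computed in R 4.3.3 with edgeR 4.0.16 on all 8 libraries: filterByExpr by group, TMM scaling, the quasi-likelihood test and Benjamini-Hochberg adjustment over 21375 features. Calls were made at adjusted p values under 0.01 with log2 fold changes beyond 1 in size. SE values were derived from the fold change and the root of the F statistic. Python 3.11.15 with pandas 2.3.3, numpy 2.4.6, scipy 1.17.1 and matplotlib 3.10.9 made tables, exact permutation tests and plots. Counting intervals are exact binomial at 95%, and a floor is 3 counts over a group.

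The genes and lists were chosen with earlier results of these data known, and lists were matched by product name and trimmed of products with another function after matching. ULK4 was kept in the list of initiation factors. Genes named with values were, in each role, up to 4 with the most counts and up to 4 called genes with the largest rise and fall without overlap, and up to 3 in each direction of a pathway list. Features named outside that rule were chosen after their values were seen: cathepsins F, L and O, the lesser Z, K and S features, LAMP 5, the lesser ATG16 features, ATG101 and the activating molecule in BECN1-regulated autophagy 1. Alternatives were the default test of DESeq2 1.42.0, limma-voom with quality weights (limma 3.58.1), other scalings, filters and thresholds, omission of the 20 features with most counts, omission of each library, and the replicate number as a block. A fit on mRNA features only was added after seeing the data. RefSeq names of another assembly were not used.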

Additional observations from a re-analysis of the deposited data

Results flagged for a closer look

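In groups of 4 libraries, the highest or lowest library was set against the others by Dixon's ratio, the gap to the nearest library divided by the range, judged against the 95% critical value. The groups were those of the features named by the rule for each role that had more than 20 counts in the group. Sums over all 64 features and over each role except sequestosome were included. Of these 79 groups 6 passed it, and chance alone passes about 1 in 20 groups. In SPZ_EJ the highest library was replicate 1 in all 4 cases. Pro-cathepsin H (Saurata1B035294) measured 646 CPM there against a median of 285 CPM in the other SPZ_EJ libraries (ratio 0.933). Autophagy-related 16-2 (Saurata1B035389) measured 25.1 against 14.7 CPM (0.915), alpha-mannosidase (Saurata1B012999) 59.2 against 29.0 CPM (0.896) and lysosomal acid phosphatase (Saurata1B054769) 14.6 against 5.65 CPM (0.893). In HGC the highest library was also replicate 1, with sequestosome-1 (Saurata1B050950) at 90.6 against 48.6 CPM (0.874) and PPT2 (Saurata1B022119) at 1.36 against 0.125 CPM (0.871). SPZ_EJ replicate 1 was also the highest SPZ_EJ library for 59.2% of all mRNAs called higher. Most leukocyte markers were highest in that library too, and its part in these values was not tested.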

How the results depend on the processing

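The 30 calls stood at 24 higher and 6 lower, and under the other tests, scalings, filters and thresholds at 28 to 35 calls, 22 to 30 higher and 4 to 7 lower, the highest total with mRNA features only (30 higher, 5 lower). In that fit 30.7% of all tested mRNAs were called higher and 26.3% lower, against 23.9% and 31.9% in the main fit. Without single libraries there were 25 to 29 calls, 20 to 23 higher and 5 to 7 lower. Over all features these omissions gave 10648 to 15286 calls among 22213 to 26057 tested. Scaling by library size only raised the median log2 fold change of all features from 0.45 to 1.19 and upper quartile scaling to 0.80, and library size scaling changed the share of mRNAs called higher from 23.9% to 30.4% and lower from 31.9% to 22.5%. It gave 28 features higher and 4 lower. Directions changed only among features that were not called. Without a filter the log2 fold changes were -0.099 for cathepsin F, -0.41 for cathepsin D Saurata1B017203, -0.18 for Saurata001085 and -0.036 for sequestosome-1. With limma-voom they were 0.42 for cathepsin O and -0.21 for cathepsin D Saurata1B017203. With library size only they were 0.41 for cathepsin O, 0.039 for alpha-glucosidase Saurata1B007470 and 0.27 for autophagy-related 2 homolog A. Cathepsin O was 0.12 with the upper quartile and 0.28 with mRNA features only, where autophagy-related 2 homolog A was 0.043. Omission of single libraries gave -0.66 to 0.33 for cathepsin O, -0.26 to 0.31 for cathepsin D Saurata1B017203, -0.048 to 0.49 for Saurata001085 and -0.081 to 0.65 for sequestosome-1. Without a filter, which adjusts over 152293 features, the calls of LAMP 1 and of cathepsin S Saurata1B027300 were lost (edgeR adjusted p of 0.0856 and 0.0144), and so was that of the lesser lysosomal protective feature (0.197). In all, 41 single values lost a call and 20 gained one.

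The replicate number as a block gave 27 calls, 21 higher and 6 lower, and a log2 fold change of 0.043 for cathepsin O. Of these 6 lower features 5 were among those called lower in the main fit. The block ended the calls of autophagy 5 and Saurata001087 (edgeR adjusted p of 0.0115 and 0.0162). It also ended those of the lesser lysosomal protective feature and cathepsin K Saurata1B033643 (0.0201 and 0.0375). Same-numbered pools correlated at 0.117, 0.0155, 0.0125 and 0.0818 in their deviations from the group means, and 2 of the 4 HGC pools correlated best with another number, so the numbers were not treated as pairs. With 4 pools a group, and fewer than 10 counts in HGC for several cathepsins, the size of their rise is uncertain. Those of them that were tested passed the filter through SPZ_EJ alone, so the filter bears on their direction as well.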
